A study of Mus musculus with 12 samples.

Results

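Disease-associated microglia markers are genes that resident macrophages of the brain switch on around dying cells, damaged myelin or protein deposits. Their levels were followed here in RNA from sorted oligodendrocytes. The members were the rows of the count table whose symbol was Itgax, Apoe, Trem2, Tyrobp, Cst7, Lpl, Axl, Clec7a, Spp1 or Gpnmb. All 10 were found among the 55376 symbols of the table, and each was related to P2ry12 and Tmem119, a pair of genes typical of resting microglia, in the same samples. Live cells of perfused C57BL/6 mouse brain at postnatal day 40 had been sorted as CD45- O1+, O1 being a galactolipid antigen of the oligodendrocyte surface. The study compared 3 genotypes with 4 samples each, and each sample held cells of 2 brains. WT mice were the controls. Cnp-Cre Jab1fl/fl mice (labelled Cnp-Cre:Jab1flfl and called Jab1 mutants below) lack the COP9 signalosome subunit JAB1, encoded by Cops5, in cells that express Cre from the Cnp locus, which are mostly oligodendrocytes. Cnp-Cre Jab1fl/fl p21CIP1-/- mice (double mutants) carry the same deletion and lack the cell cycle inhibitor p21, encoded by Cdkn1a, in every cell. Both mutant groups therefore share Cnp-Cre and the floxed Jab1 alleles, and microglia were not the target of the Cre. No label says how the 2 brains of a sample were matched, so p-values measure the spread between these pooled samples.

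In the disease-associated state, the surface receptor TREM2 binds lipids and apoptotic cells and signals through the adaptor DAP12, the product of Tyrobp. Lipid-handling genes such as Apoe and Lpl, lysosomal genes such as Cst7 and Gpnmb, and secreted Spp1 rise in turn, while the resting genes P2ry12 and Tmem119 fall. The signature is well known from demyelinated white matter. Several members, Apoe above all, are also transcribed by other brain cells. In RNA of a sorted cell population, a different number of microglia and a different amount of RNA per microglial cell cannot be told apart.

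RefSeq promoter entries were found for 8 of the 10 members, and Tyrobp and Lpl had none. The 250 bases before the transcription start are shown for the 5 members with an entry that passed the test between Jab1 mutants and WT, so that the sequences of the members that moved together can be compared. Coordinates are on GRCm38.p6. Itgax lies at chr7:128129300-128129549 (+ strand), Trem2 at chr17:48346151-48346400 (+), Cst7 at chr2:150570165-150570414 (+), Clec7a at chr6:129472780-129473029 (- strand) and Spp1 at chr5:104434861-104435110 (+). Capitals mark GAGGAA, the core recognised by the macrophage factor PU.1, and TGANTCA, the site of AP-1 factors, searched on both strands. These motifs do not overlap each other in the windows shown.
Itgax promoter: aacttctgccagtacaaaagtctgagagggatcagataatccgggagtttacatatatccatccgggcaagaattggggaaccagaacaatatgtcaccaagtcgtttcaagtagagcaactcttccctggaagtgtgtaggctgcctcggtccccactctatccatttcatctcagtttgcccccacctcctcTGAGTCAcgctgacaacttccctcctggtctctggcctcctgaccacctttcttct
Trem2 promoter: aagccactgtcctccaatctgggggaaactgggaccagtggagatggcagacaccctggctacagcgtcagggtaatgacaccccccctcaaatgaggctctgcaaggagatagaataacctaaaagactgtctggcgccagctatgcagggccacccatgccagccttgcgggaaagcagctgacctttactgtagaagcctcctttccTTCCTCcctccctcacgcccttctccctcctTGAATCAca
Cst7 promoter: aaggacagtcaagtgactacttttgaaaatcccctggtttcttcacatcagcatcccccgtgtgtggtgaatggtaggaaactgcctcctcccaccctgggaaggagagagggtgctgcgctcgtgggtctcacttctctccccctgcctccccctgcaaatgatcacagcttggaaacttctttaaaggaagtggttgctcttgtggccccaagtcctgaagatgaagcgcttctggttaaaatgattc
Clec7a promoter: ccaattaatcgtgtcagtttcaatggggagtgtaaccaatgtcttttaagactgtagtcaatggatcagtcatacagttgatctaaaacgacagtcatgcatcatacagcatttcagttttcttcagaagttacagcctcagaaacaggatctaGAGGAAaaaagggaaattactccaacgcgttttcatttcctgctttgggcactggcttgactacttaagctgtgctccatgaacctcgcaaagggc
Spp1 promoter: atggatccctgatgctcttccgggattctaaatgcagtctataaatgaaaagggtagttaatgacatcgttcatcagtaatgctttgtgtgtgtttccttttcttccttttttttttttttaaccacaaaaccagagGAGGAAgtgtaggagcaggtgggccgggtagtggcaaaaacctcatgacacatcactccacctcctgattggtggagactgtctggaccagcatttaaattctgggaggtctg
A GAGGAA match started 40 bases before the start of Trem2, 96 before that of Clec7a and 113 before that of Spp1. TGANTCA matches stood 56 bases before the start of Itgax and 9 before that of Trem2. Of the 8 members with an entry, 5 held GAGGAA, against 23.3% of all 32851 promoter windows of this length, and the 5 included Apoe and Axl, which did not pass the test between Jab1 mutants and WT. TGANTCA was found in 2 of the 8 and in 6.75% of all windows. Cst7 held neither motif in this window.

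On GRCm38, Trem2 (17, 48346401 to 48354147) and Cst7 (2, 150570415 to 150578944) lie on the + strand, as do Itgax (7, 128129547 to 128150657), Tyrobp (7, 30413760 to 30417585), Lpl (8, 68880491 to 68907448), Spp1 (5, 104435118 to 104441050) and Gpnmb (6, 49036546 to 49070929). Apoe (7, 19696109 to 19699188), Axl (7, 25757273 to 25788705) and Clec7a (6, 129461591 to 129472779) lie on the - strand, with chromosome, start and end in brackets. Counts were made over exons, and the GENCODE annotation used here types Clec7a as a polymorphic pseudogene and the others as protein coding.

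The libraries held 61485556 to 153495112 counted reads, and 17716 genes reached a CPM of 1 (counts scaled to a common library size) in at least 4 of the 12 samples and were tested. The targeted gene Cops5 stood at 46.3 to 134 CPM in WT, 44.9 to 89.0 CPM in Jab1 mutants and 44.2 to 90.4 CPM in double mutants, and did not pass the test (log2 difference of Jab1 mutants from WT -0.62, SE 0.36, edgeR adjusted p = 0.349). These counts cover the whole gene, exons outside the floxed part included. Cdkn1a read 379 to 636 CPM in Jab1 mutants and 64.7 to 103 CPM in double mutants, without overlap (log2 difference -2.35, SE 0.32, edgeR adjusted p = 0.0916), and the reads left in the double mutants overlapped the WT range of 16.0 to 85.4 CPM. Here too the counts cover the whole gene, and 273 exon bases of Cdkn1a are shared with AC167363.2 on the other strand. By qPCR, the study could not detect Cdkn1a in sorted double mutant oligodendrocytes. One library stands apart. Double mutant replicate 3 had 10445 summed CPM over 12 homeostatic microglia markers, against 225 to 1022 in the other double mutants, 678 to 1433 in Jab1 mutants and 132 to 257 in WT, and the edgeR calls of members and list genes that involve double mutants are given with and without it. Against WT, double mutants had 31 of all genes called upward and 3 downward, and 7 and 0 without this library. Ptprc encodes CD45 and was named because the gate took CD45- cells. It had 0 to 141 reads in WT samples, at most 1.53 CPM. Jab1 mutants had 31.7 to 107 CPM of Ptprc and double mutants 3.11, 4.44, 10.9 and 101 CPM. The study reports that cytometry of the sorted cells found no overt CD45+ cells in any group. It also reports that the O1+ purity on reanalysis was incomplete, and it leaves room for minor contamination. Itgam, which encodes CD11b, a further exclusion marker in the supplement of the study, had 0.543 to 2.005 CPM in WT and 11.5 to 38.2 CPM in Jab1 mutants.

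Of the 4 receptor genes of the signature, 3 were higher in Jab1 mutants than in WT and Axl was not called. Itgax encodes the integrin chain CD11c. It had 1, 0, 1 and 0 reads in the 4 WT samples, 14.4, 8.16, 29.0 and 12.7 CPM in the Jab1 mutants, and 0.192, 3.99, 9.51 and 7.92 CPM in the double mutants (values here and below in the order of the replicate numbers). Each mutant sample was above each WT sample. The summed counts gave a 3383-fold ratio of Jab1 mutants to WT with an exact Clopper-Pearson 95% interval of 936 to 27941, which covers counting error only, and the test across all genes passed (edgeR quasi-likelihood, adjusted p = 0.000452). Clec7a encodes dectin-1, a receptor for fungal glucans. No WT sample had a Clec7a read. Jab1 mutants had 21.4, 10.6, 12.3 and 3.47 CPM and double mutants 3.40, 7.49, 98.8 and 19.8 CPM. Set against a floor of 3 reads over the WT group, Clec7a was at least 1813-fold higher in Jab1 mutants (edgeR adjusted p = 0.00196).

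Trem2 itself stood at 2.97, 0.614, 2.75 and 2.14 CPM in WT. It reached 117, 56.4, 139 and 104 CPM in Jab1 mutants, all above each WT sample. In double mutants it read 5.79, 12.8, 400 and 55.1 CPM, a spread of which replicate 3 forms the top and replicate 1 the bottom. The log2 difference of Jab1 mutants from WT was 5.62 (SE 0.55, edgeR adjusted p = 0.000534, n = 4 against 4). Axl, a receptor tyrosine kinase that takes up apoptotic cells through the bridging ligand GAS6, had a different profile. It read 47.8, 139, 37.8 and 52.6 CPM in WT and 79.4, 76.2, 60.6 and 71.0 CPM in Jab1 mutants. The WT range enclosed the Jab1 mutant range, and WT replicate 3 was the highest of the 8 samples. The log2 difference was 0.05 (SE 0.40, edgeR adjusted p = 0.960).

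Tyrobp, which encodes the signalling adaptor of TREM2, had 7.52, 0.388, 7.99 and 9.45 CPM in WT and 190, 68.0, 51.5 and 190 CPM in Jab1 mutants. The groups did not overlap, and WT replicate 3 was far below the other WT samples. The double mutants had 36.5, 54.8, 860 and 145 CPM. The log2 difference of Jab1 mutants from WT was 4.30 (SE 0.83, edgeR adjusted p = 0.0117).

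**Figure D1:**
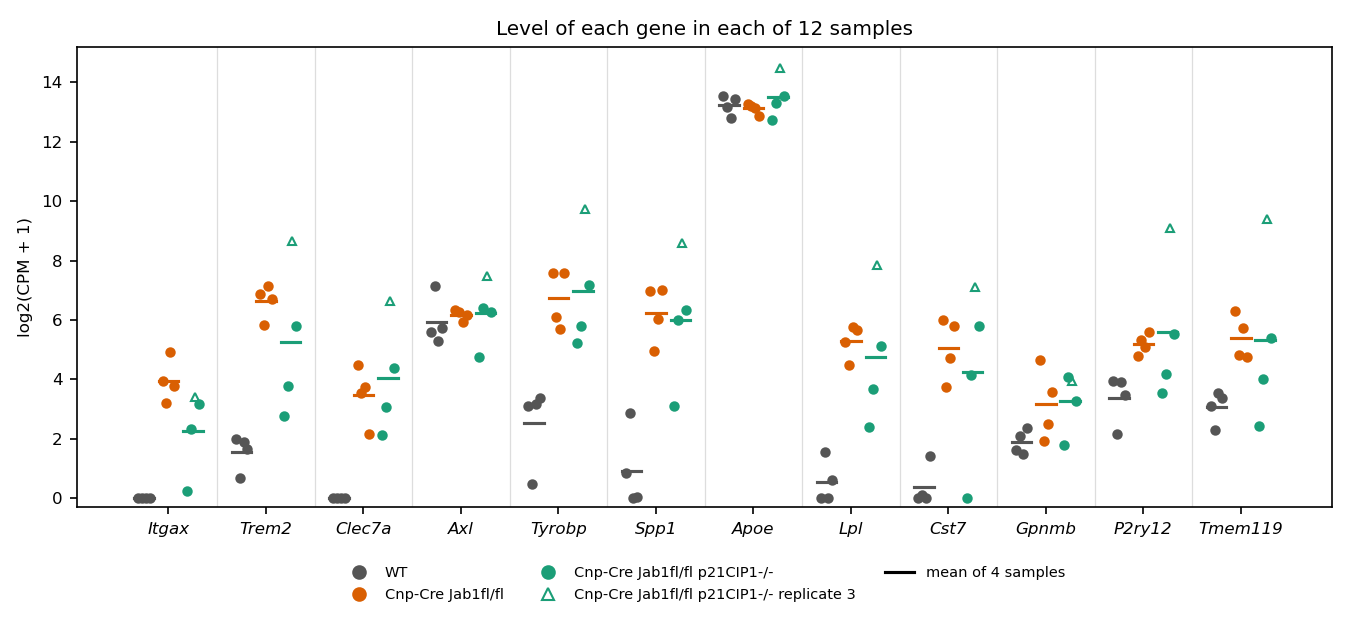
Level of the 10 members and of P2ry12 and Tmem119 in each sample, as log2(CPM + 1), with 1 point per sample, coloured by genotype, and a bar at the mean of each group of 4. The open triangle is double mutant replicate 3. Itgax and Clec7a lie at or near 0 in all WT samples, and Apoe and Axl lie at similar heights in the WT and Jab1 mutant samples.

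Among the secreted and lipid-handling members, Spp1 and Lpl were higher in Jab1 mutants and Apoe was not. Spp1 encodes osteopontin, a ligand of integrins and CD44. WT samples had 88, 970, 0 and 2 Spp1 reads, so that WT replicate 3 alone reached 6.27 CPM. Jab1 mutants had 125, 29.8, 64.7 and 128 CPM and double mutants 7.70, 62.9, 381 and 79.4 CPM, each above each WT sample. The log2 difference of Jab1 mutants from WT was 5.60 (SE 1.51, edgeR adjusted p = 0.0456), and 8 of 15 alternative settings left it above the threshold. In the annotation, 309 exon bases of Spp1 are shared with Gm42793 on the same strand, and reads there could have been counted for either.

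Lpl encodes lipoprotein lipase, which frees fatty acids from lipoproteins. It had 2, 305, 0 and 50 reads in WT, that is at most 1.97 CPM, and 37.4, 21.2, 53.7 and 49.3 CPM in Jab1 mutants. The groups did not overlap (log2 difference 5.98, SE 1.36, edgeR adjusted p = 0.0235). Double mutants read 4.24, 11.7, 231 and 34.2 CPM, each again above the WT range. Apoe, the lipid carrier of the brain, was by far the most abundant member in every genotype. It stood at 12012, 9162, 7111 and 11205 CPM in WT and at 9919, 9497, 8961 and 7526 CPM in Jab1 mutants, within the range of WT. The log2 difference was -0.14 (SE 0.33, edgeR adjusted p = 0.858). In double mutants Apoe read 6862, 10177, 22617 and 11871 CPM, where replicate 3 is the highest of all 12 samples. Apoe supplied 90.7% to 99.5% of the summed CPM of the 10 members in each sample, so a sum over the members mostly follows Apoe. The 10 astrocyte markers, whose cells are a main source of Apoe in the brain, were expressed at 5582 to 13899 summed CPM in WT and 3627 to 8976 in Jab1 mutants. Of these, 0 of 10 passed the test, where 5.19% of all genes were higher and 2.46% lower, so the count says little. Their median log2 difference was -0.48, and 1 of 10 was above 0. The part of astrocytes in the level of Apoe was not tested.

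The lysosomal members split. Cst7 encodes cystatin F, an inhibitor of cysteine proteases in immune cells. It had 0, 12, 0 and 158 reads in WT and 63.5, 12.3, 25.3 and 54.2 CPM in Jab1 mutants. WT replicate 6, at 1.71 CPM, was the highest WT sample and lay below each Jab1 mutant. The log2 difference was 6.45 (SE 1.60, edgeR adjusted p = 0.0334), and 8 of 15 alternative settings left it above the threshold. In double mutants, replicate 1 had no Cst7 read and the others had 16.8, 138 and 54.3 CPM. Gpnmb encodes a transmembrane glycoprotein of lysosomes and melanosomes. It read 2.06, 3.32, 1.82 and 4.11 CPM in WT, 24.0, 2.84, 4.61 and 10.98 CPM in Jab1 mutants, and 2.45, 16.1, 14.4 and 8.66 CPM in double mutants. Jab1 mutant replicate 2 lay inside the WT range, and the log2 difference of 1.91 (SE 0.74) did not pass (edgeR adjusted p = 0.151).

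In all, 7 of the 10 members were higher in Jab1 mutants than in WT at an adjusted p under 0.05 and 0 were lower, where 5.19% of all genes tested were higher and 2.46% lower. The 7 are Itgax, Trem2, Clec7a, Tyrobp, Spp1, Lpl and Cst7. The same 7 were higher in each Jab1 mutant than in each WT sample, as were 9.88% of all genes. The median log2 difference of the 10 was 5.61, against 0.02 over all genes, and setting Clec7a at its bound and Itgax at its count ratio left the median at 5.61. All 10 members passed the filter on low counts, but 7 of them reached it only through mutant samples, and 3 (Apoe, Axl and Gpnmb) were at 1 CPM in all WT samples. The 7 that reached the filter through mutant samples are the 7 that were called, so their count says little beyond the values given. Leaving out Jab1 mutant replicate 3 lowered the count to 4.

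Per kilobase of exon, the order of the members changed with genotype. In WT the mean levels were 5371 ± 1195 CPM per kb for Apoe, 16.2 ± 10.99 for Axl, 11.2 ± 7.18 for Tyrobp and 1.85 ± 0.931 for Trem2 (SD, n = 4). The other WT members were near or below 1 CPM per kb. In Jab1 mutants Tyrobp followed Apoe at 221 ± 134 CPM per kb, then Trem2 at 91.2 ± 30.6, Spp1 at 52.7 ± 29.0, Cst7 at 39.4 ± 24.4 and Axl at 16.8 ± 1.92. Lpl (9.82 ± 3.53), Clec7a (5.22 ± 3.22), Itgax (3.71 ± 2.08) and Gpnmb (2.35 ± 2.13) came last. In this order, neighbours overlapped within 1 SD except Apoe with Tyrobp and Axl with Lpl. In WT, Axl and Tyrobp overlapped within 1 SD. P2ry12 and Tmem119 stood at 15.0 ± 3.64 and 20.5 ± 11.1 CPM per kb in Jab1 mutants, below Tyrobp and Trem2, and at 4.29 ± 2.05 and 3.53 ± 1.32 in WT, above Trem2.

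The resting genes themselves were higher in Jab1 mutants. P2ry12, a purinergic receptor by which microglial processes sense ATP and ADP, had 14.4, 3.53, 13.9 and 10.1 CPM in WT and 26.7, 39.2, 33.2 and 47.6 CPM in Jab1 mutants (log2 difference 1.81, SE 0.45, edgeR adjusted p = 0.0347). Tmem119, a microglial membrane protein, had 7.58, 3.92, 10.8 and 9.42 CPM in WT and 78.4, 27.0, 52.3 and 25.9 CPM in Jab1 mutants (log2 difference 2.54, SE 0.48, edgeR adjusted p = 0.0104). For both genes all Jab1 mutants lay above all WT samples. In the double mutants, replicate 3 had 543 CPM of P2ry12 and 672 CPM of Tmem119, while the others had 10.8 to 45.2 and 4.43 to 41.4 CPM. The members were therefore also expressed as reads per 100 reads of P2ry12 and Tmem119 together, which removes a change shared with these genes. The sum of the pair was 1153 to 2492 reads in WT, 5469 to 8257 in Jab1 mutants and 1426 to 124715 in double mutants.

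Relative to P2ry12 and Tmem119, 5 members were still higher in Jab1 mutants than in WT and 2 were lower, at an adjusted p under 0.05. Over all genes 1.32% were higher and 63.5% were lower on this scale, where the median gene lay at -2.41. Without overlap between samples, 6 members were higher and 2 lower, against 1.38% and 63.2% of all genes. The members counted as higher are all among the 7 that reached the low-count filter only through mutant samples. Their counts against these shares therefore say little beyond the values given. Trem2 had 13.6, 8.24, 11.2 and 10.9 reads per 100 in WT and 112, 85.1, 163 and 141 in Jab1 mutants, without overlap. The log2 difference was 3.51 (SE 0.57, edgeR adjusted p = 0.00266). Tyrobp had 34.3, 5.20, 32.4 and 48.3 reads per 100 in WT and 180, 103, 60.3 and 259 in Jab1 mutants (log2 difference 2.32, SE 0.72, edgeR adjusted p = 0.0139). The lowest Jab1 mutant was close to the highest WT sample. Cst7 had 0 to 8.76 reads per 100 in WT and 18.5 to 73.7 in Jab1 mutants (log2 difference 4.22, SE 1.63, edgeR adjusted p = 0.0372).

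Itgax and Clec7a were also higher on this scale. Itgax had 13.7, 12.3, 34.0 and 17.3 reads per 100 in Jab1 mutants, and its summed counts gave a 721-fold ratio to WT (exact Clopper-Pearson 95% interval 199 to 5951; edgeR adjusted p = 0.00266). Clec7a had 20.3, 16.0, 14.4 and 4.72 reads per 100 and was at least 386-fold higher than WT (edgeR adjusted p = 0.00266). Lpl and Spp1, called by library size, did not pass relative to the resting genes. WT replicate 3 stood apart for both, with 26.5 Lpl reads and 84.1 Spp1 reads per 100 against at most 2.77 and 3.64 in the other WT samples. The log2 differences were 2.76 (SE 1.51, edgeR adjusted p = 0.123) for Lpl and 2.24 (SE 1.58, edgeR adjusted p = 0.221) for Spp1. Without WT replicate 3 both passed, at 5.72 (SE 1.48, edgeR adjusted p = 0.00755) for Lpl and 6.35 (SE 1.45, edgeR adjusted p = 0.00402) for Spp1, while Cst7 no longer did (3.97, SE 1.76, edgeR adjusted p = 0.0766).

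**Figure D2:**
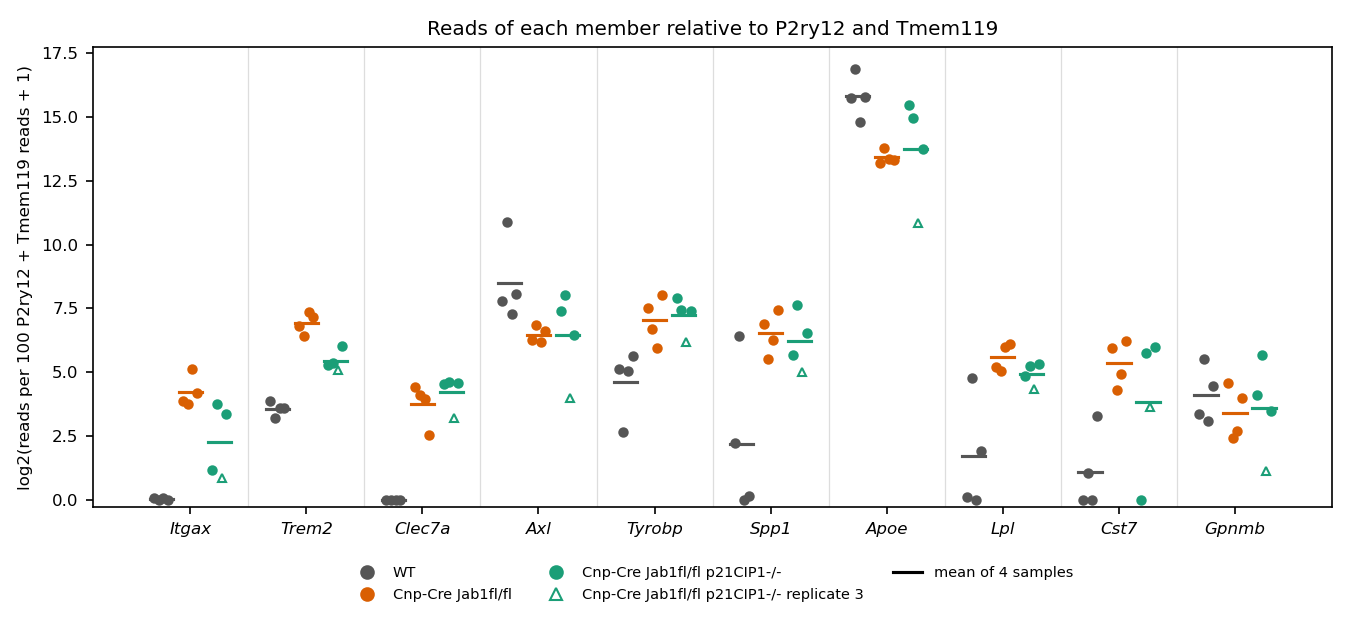
Reads of each member per 100 reads of P2ry12 and Tmem119, as log2(value + 1), with 1 point per sample and a bar at the mean of each group of 4; the open triangle is double mutant replicate 3. Trem2 lies at 8.24 to 13.6 in WT, 85.1 to 163 in Jab1 mutants and 33.0 to 63.6 in double mutants before the log.

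Apoe and Axl fell relative to the resting genes, as most genes of these libraries did. Apoe had 28816 to 122920 reads per 100 in WT and 9435 to 14336 in Jab1 mutants (log2 difference -2.57, SE 0.56, edgeR adjusted p = 0.00295). Axl had 153 to 1871 in WT and 70.9 to 115 in Jab1 mutants (log2 difference -2.81, SE 0.78, edgeR adjusted p = 0.00803). Both differences were close to the median of all genes on this scale. Gpnmb, at 7.38 to 44.5 reads per 100 in WT and 4.28 to 22.9 in Jab1 mutants, had a log2 difference of -0.79 (SE 0.92, edgeR adjusted p = 0.454).

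The microglial reference was also changed. All 12 pan-macrophage markers (among them Aif1, Csf1r, the C1q chains and Spi1) were higher in Jab1 mutants by library size, against 5.19% of all genes. Relative to P2ry12 and Tmem119, 7 of them were also higher, against 1.32% of all genes. Ptprc, which is among the 12, had at most 1.53 CPM in WT and reached the low-count filter through mutant samples. With the summed reads of these 12 as the reference, Tyrobp had 10.6, 0.758, 6.15 and 9.15 reads per 100 in WT and 10.1, 9.04, 3.87 and 9.13 in Jab1 mutants. Its groups overlapped, and the log2 difference was 0.27 (SE 0.76, edgeR adjusted p = 0.730). Cst7 also lost its call there (log2 difference 2.40, SE 1.55, edgeR adjusted p = 0.152). Trem2 kept 4.18, 1.20, 2.12 and 2.07 reads per 100 in WT against 6.28, 7.50, 10.4 and 4.99 in Jab1 mutants, without overlap (log2 difference 1.61, SE 0.73, edgeR adjusted p = 0.0478). Itgax and Clec7a also stayed higher (edgeR adjusted p = 0.000392 and 0.000460). On this scale 3 members were higher and 3 lower, against 0.66% and 86.4% of all genes, and the same counts did not overlap between samples, against 0.632% and 82.0%. The 3 higher members reached the low-count filter only through mutant samples, so their count says little beyond the values given. The 3 lower were Apoe (-4.17), Axl (-4.23) and Gpnmb (-2.54, SE 0.97, edgeR adjusted p = 0.0224) in log2 difference.

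**Figure D3:**
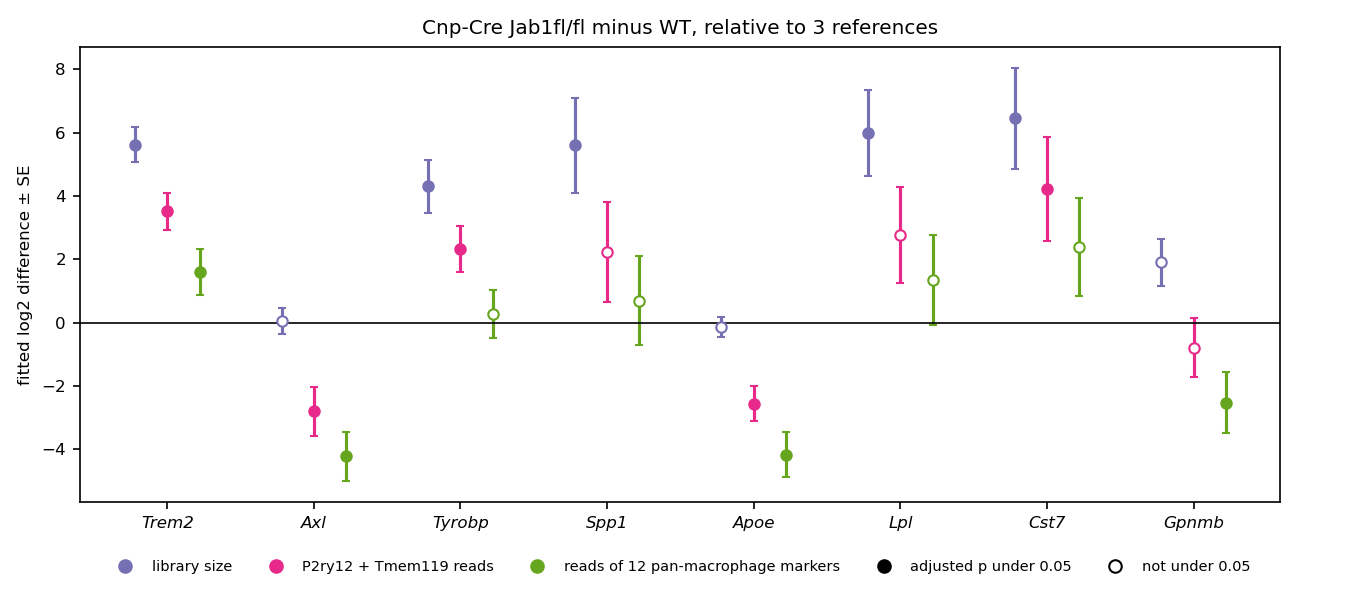
Fitted log2 difference of Jab1 mutants from WT (vertical axis, bars 1 SE) for 8 members under 3 references, which are library size, the reads of P2ry12 and Tmem119, and the reads of 12 pan-macrophage markers. Filled points have an adjusted p under 0.05. Itgax and Clec7a are left out because they had 2 reads and 0 reads in WT. Tyrobp moves from 4.30 to 2.32 to 0.27 and Trem2 from 5.62 to 3.51 to 1.61.

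Between double mutants and WT, the samples covered a wide range. All 10 fitted log2 differences from WT were above 0, with a median of 6.01, and 1 member passed the test by library size (Clec7a, edgeR adjusted p = 0.0437), where 0.175% of all genes were higher and 0.0169% lower. Itgax missed the threshold at an adjusted p of 0.0508 and Trem2 at 0.102 (edgeR). Each double mutant was above each WT sample for 6 members (Itgax, Trem2, Tyrobp, Lpl, Clec7a and Spp1), as for 4.52% of all genes. These 6 reached the low-count filter only through mutant samples, so their count says little beyond the values. Clec7a was at least 4859-fold higher than WT over the 4 double mutants and at least 1530-fold higher without replicate 3. Without that replicate no member passed by library size (Clec7a at an edgeR adjusted p of 0.0606), the log2 difference of Trem2 from WT went from 5.81 (SE 1.30) to 3.52 (SE 0.82), and those of Apoe and Axl turned to -0.04 and -0.16.

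Double mutant replicate 3 showed how far a level and a ratio can part. By CPM it was the highest of the 4 double mutants for 9 of the 10 members, as for 24.0% of all genes. By reads per 100 reads of P2ry12 and Tmem119 it was the lowest for 9 of the 10, as were 88.8% of all genes. Itgax, for instance, read 9.51 CPM there but 0.783 per 100, against 1.26, 12.4 and 9.15 in the other double mutants. Clec7a had 8.13 per 100 in replicate 3 and 22.3, 23.3 and 22.9 in the others.

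Relative to P2ry12 and Tmem119, 4 members were higher in each double mutant than in each WT sample (Itgax, Trem2, Tyrobp and Clec7a), against 0.389% of all genes, and 0 passed the test, against 0.0113% of genes higher and 0.0113% lower. The edgeR adjusted p was 0.0675 for Clec7a, 0.613 for Itgax and 0.691 for Trem2. At an unadjusted p under 0.05, 3 of the members were higher (Itgax, Clec7a and Cst7), against 0.683% of all genes. With replicate 3 left out, Clec7a passed (edgeR adjusted p = 0.00170). With the 12 pan-macrophage markers as the reference, Itgax and Clec7a were higher and Apoe and Axl lower with or without replicate 3 (0.277% and 48.4% of all genes with it), and 2 members lay above and 2 below all WT samples (0.214% and 71.2%). All members counted as higher in these comparisons reached the low-count filter only through mutant samples. Their counts against the shares of all genes therefore say little beyond the values given.

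Loss of p21 on top of Jab1 loss gave no call among the members. Between double mutants and Jab1 mutants, 0 of 10 members passed the edgeR test by library size or relative to the resting genes, and 0.0% of all genes did on either scale. At an unadjusted p under 0.05, 310 genes (1.75%) were higher and 575 (3.25%) lower by library size, and 389 (2.2%) and 53 (0.299%) relative to the resting genes, 0 of them members on either scale, and DESeq2 called 20 higher and 67 lower, 0 of them members. The SE of the members' log2 differences ran from 0.41 for Apoe to 1.33 for Cst7 by library size. For Trem2 the samples of these groups did not overlap on the relative scale. Relative to P2ry12 and Tmem119 it had 38.0, 39.7, 33.0 and 63.6 reads per 100 in double mutants, each below each Jab1 mutant (85.1 to 163) and above each WT sample (8.24 to 13.6). The group means were 43.6 ± 13.7 and 125 ± 34.0 (SD, n = 4). A separation downward of this kind was seen for 0.835% of all genes. The fitted log2 difference was -1.52 (SE 1.28) with an edgeR adjusted p of 0.820, and -1.41 (SE 0.72, adjusted p = 0.1745) without replicate 3. This separation was singled out after its values were seen. On the pan-macrophage scale Trem2 had 2.08, 1.94, 3.05 and 3.61 reads per 100 in double mutants, below each Jab1 mutant and within the WT range. Itgax also lay below each Jab1 mutant there, so that 2 members did, against 0.943% of all genes. Tyrobp did not follow, with 240, 170, 70.8 and 167 reads per 100 of the resting genes in double mutants and 60.3 to 259 in Jab1 mutants.

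Genes that work with the members were read from 7 lists. Among 28 tested genes of the wider disease-associated state, 13 were higher in Jab1 mutants and 0 lower by library size (5.19% and 2.46% of all genes). In each WT sample, 5 to 8 of the 30 genes listed had no read. Those of them that were tested needed mutant samples to reach the low-count filter. The counts of this list against the shares therefore say little beyond the values. The chemokine Ccl4 (log2 difference 11.73), the galactoside-binding lectin Lgals3 (4.42, SE 0.57) and Cybb, a subunit of the phagocyte oxidase (12.23), led the list, with edgeR adjusted p of 0.000417, 0.00210 and 0.00301. The fitted values of Ccl4 and Cybb depend on the prior count. Relative to P2ry12 and Tmem119, 7 of the 28 were higher and 12 lower, against 1.32% and 63.5% of all genes. Of 23 genes of TREM2 and DAP12 signalling, 11 were higher and 0 lower by library size (5.19% and 2.46% of all genes), and 5 were higher and 9 lower relative to P2ry12 and Tmem119 (1.32% and 63.5%). Pik3cd, a catalytic subunit of phosphoinositide 3-kinase (log2 difference 4.84, SE 0.57), the inositol phosphatase gene Inpp5d (5.50, SE 0.82) and the exchange factor gene Vav1 (4.30, SE 0.77) came first (edgeR adjusted p = 0.00165, 0.00403 and 0.00861).

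Over all genes 5.19% were higher and 2.46% lower in Jab1 mutants. Of 19 tested genes of lipid uptake and efflux, the surroundings of Apoe and Lpl, 0 were higher and 2 lower. This list had a median log2 difference of -0.07 against 0.02 over all genes. The lower genes included Npc1, the cholesterol exporter of lysosomes (log2 difference -1.51, SE 0.30, edgeR adjusted p = 0.0124). The receptor gene Vldlr had -1.37 (SE 0.41, edgeR adjusted p = 0.0672), and Apoc2 had no read in any sample. Among integrin partners of Itgax and receptors of osteopontin, 1 of 11 was higher, against 5.19% of all genes, so the count itself says little. This was Itgam (log2 difference 3.81, SE 0.63, edgeR adjusted p = 0.00650), which shares 3450 exon bases with Gm49368 and is also a pan-macrophage marker. Itgb2, whose product pairs with CD11c, had 5.09 (SE 1.76) and the osteopontin receptor Cd44 2.28 (SE 0.89), both short of the threshold (edgeR adjusted p = 0.110 and 0.156).

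For the lists that follow, the shares over all genes were again 5.19% higher and 2.46% lower. Counts of 0 or 1 in lists this short are not far from these shares. Of 6 tested genes from a list of relatives and ligands of Axl that also holds Socs1 and Socs3, 0 were higher. The related receptor gene Tyro3 was lower (log2 difference -2.30, SE 0.57, edgeR adjusted p = 0.0333). Socs3, a feedback inhibitor of cytokine signalling, had 2.25 (SE 0.69) and the ligand gene Gas6 0.83 (SE 0.34), with edgeR adjusted p of 0.0743 and 0.177. Of 12 cystatins and cysteine cathepsins, the proteases that cystatin F restrains included, 3 were higher and 0 lower. They were Ctss (4.14, SE 0.65), Ctsh (2.49, SE 0.48) and Ctsc (1.68, SE 0.43), with edgeR adjusted p of 0.00491, 0.0118 and 0.0362. Of the 3 tested MiT/TFE factors, which drive lysosomal genes and Gpnmb, 0 passed. Mitf had 0.66 (SE 0.40), Tfeb -0.68 (SE 0.47) and Tfe3 0.06 (SE 0.48), with edgeR adjusted p of 0.375, 0.447 and 0.962. In double mutants against WT, where 0.175% of all genes were higher, Lgals3 and Ccl4 were the 2 genes called of all 7 lists. The log2 difference of Lgals3 was 4.24 (SE 0.64), and the edgeR adjusted p was 0.0404 for both. Without replicate 3 neither passed (3.61, SE 0.56, for Lgals3 and edgeR adjusted p = 0.0606 for both). Between double mutants and Jab1 mutants 0 were called with or without it.

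Genes with the most similar profile were sought for each member over the 12 samples, as the smallest root-mean-square difference of centred log2(CPM + 1). They were Neurl1a (0.48) and Hk3 (0.50) for Itgax, Ccl3 (0.48) and Aif1 (0.52) for Trem2, Lyz2 (0.45) and Ctss (0.46) for Tyrobp, and Ccl6 (0.63) and Bin2 (0.64) for Clec7a. Cst7 was nearest to Itgb2 (0.63) and Fcrls (0.80), Lpl to Pld4 (0.50) and Samsn1 (0.58), and Spp1 to Ccl6 (0.91) and H2-Q6 (0.98). Most of these are genes of macrophages. The 3 members that were not called had other neighbours. Apoe was nearest to the glycolytic gene Eno1 (0.18) and Gstm2-ps1 (0.20), Axl to Smpd3 (0.31) and Asph (0.31), and Gpnmb to Gm44799 (0.45) and Gm16090 (0.48). The median over all genes tested was 0.83 for Apoe, 1.92 for Itgax and 2.64 for Trem2 on this measure. The points are the same 12 libraries for each gene, and the distances are given as a description.

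Marker lists of other cells were read in the same samples, where 5.19% of all genes were higher and 2.46% lower in Jab1 mutants than in WT. By library size, 10 of 12 homeostatic microglia markers and 12 of 12 pan-macrophage markers were higher in Jab1 mutants than in WT, with summed levels of 132 to 257 and 51.2 to 130 CPM in WT and 678 to 1433 and 752 to 2085 CPM in Jab1 mutants. Border macrophage markers gave 10.5 to 13.9 CPM in WT and 34.3 to 93.8 CPM in Jab1 mutants, and 2 of 6 tested were higher. Monocyte and neutrophil markers summed to 0.644 to 2.13 CPM in WT and 3.05 to 17.3 CPM in Jab1 mutants, without overlap, with Chil3 at 0 in all samples. The 1 gene of that list that was tested, Ly6c2, had a log2 difference of 2.86 and was not called. T cell markers gave 2.0004 to 5.33 and 0.166 to 21.9 CPM, with 0 of 2 called. Endothelial markers had 7 of 10 higher (428 to 992 CPM in WT and 1013 to 7350 in Jab1 mutants) and mural markers 4 of 10 (294 to 537 and 1015 to 1784 CPM), and 8 of 12 mature oligodendrocyte markers were lower (45994 to 106879 and 9031 to 35476 CPM). Neuron markers had 1 of 10 higher (155 to 272 CPM in WT and 301 to 754 in Jab1 mutants). Progenitor markers had 1 higher and 1 lower of 8 (1522 to 1976 CPM in WT and 702 to 1298 in Jab1 mutants). Neither of these sums overlapped between the groups. The part of these other cells in the levels of the members was not tested.

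**Figure D4:**
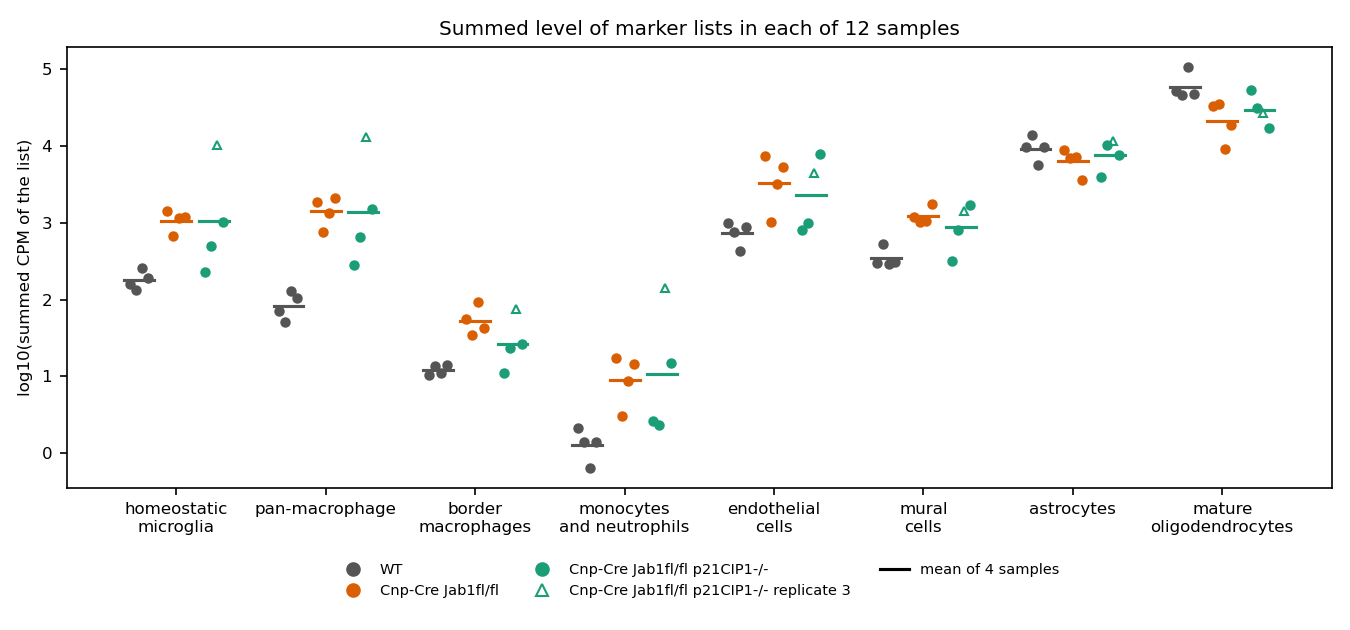
Summed CPM of 8 marker lists in each sample on a log10 axis, with 1 point per sample, a bar at the mean of the 4 log values of each genotype and an open triangle for double mutant replicate 3. Pan-macrophage markers are lowest in the WT samples (51.2 to 130 CPM against 278 CPM or more), while for homeostatic microglia markers double mutant replicate 1 (225 CPM) lies within the WT range, and replicate 3 of the double mutants lies above all others for both lists.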

How the data were processed

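RNA of sorted O1+ oligodendrocytes was measured in 4 samples of each of 3 genotypes by SMART-Seq v4 libraries. Per the labels, the authors used Trimmomatic 0.32, STAR 2.5.3a on GRCm38 and featureCounts, and deposited raw counts, with no normalization. The strand setting is not given in the sources used here.

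A gene was tested if 4 or more of the 12 libraries reached 1 CPM (17716 of 55376), by the quasi-likelihood test in edgeR 4.0.16 (R 4.3.3) with TMM scaling on the 8 samples compared, without covariates. P-values were adjusted by Benjamini-Hochberg over all genes tested, with a threshold of 0.05. CPM used the TMM-scaled library size. For relative levels, the summed counts of P2ry12 and Tmem119 replaced the library size. Folds against 0 reads used a floor of 3 reads over the group, and intervals and floors cover counting error only. Alternatives were upper-quartile scaling, DESeq2 1.42.0, limma-voom (limma 3.58.1), no filter, a mean of 10 CPM, all 12 samples in one fit, a replicate block, other references and leaving out each replicate. On simulated counts for Jab1 mutants against WT (17716 genes), edgeR recovered 54% of changed genes, and 6.09% of its calls were false. DESeq2 recovered 71% with 37.2% false and limma-voom 45.5% with 5.21%. The counts were drawn with edgeR's own dispersion estimates, and few genes were changed, all well expressed and all strongly. These rates therefore hold for that setting only.

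The text names all members, the 3 genes of smallest p of each pathway list and any called against most of its list, the 2 nearest genes to each member, and label checks; 1 gene that this rule selects is not reported here. Members and lists were chosen with earlier results of these data known.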

Additional observations from a re-analysis of the deposited data

Results flagged for a closer look

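The highest or lowest of 4 samples stood far from the others in 3 of 66 groups, where chance gives about 5% (Dixon's ratio of gap to range). Clec7a in WT, at 0 in all 4 samples, is counted among the 66 on both scales but has no ratio. Tyrobp in WT was lowest in replicate 3, with 0.388 CPM against 7.52 to 9.45 CPM (ratio 0.899 on the log2(CPM + 1) scale). Cst7 in WT was highest in replicate 6, with 1.71 CPM against at most 0.0776 CPM (ratio 0.925). Clec7a per 100 reads of P2ry12 and Tmem119 in double mutants was lowest in replicate 3, with 8.13 against 22.3 to 23.3 (ratio 0.958 on the log2 scale).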

How the results depend on the processing

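Between Jab1 mutants and WT, 5 to 7 members were called by library size under the other settings, and 4 to 7 with 1 replicate left out (4 without Jab1 mutant replicate 3). Trem2, Tyrobp and Clec7a were called in all 15 alternatives and Itgax in the 14 that tested it (its mean is under 10 CPM), while Cst7 and Spp1 lost the call in 8 of 15 alternatives (edgeR adjusted p up to 0.0965 and 0.106) and Lpl in 2. Relative to P2ry12 and Tmem119, 6 to 8 were called, of which 3 (pan-macrophage markers as reference) to 6 were higher. The relative call of Cst7 was lost in 5 of 14 alternatives, which are the pan-macrophage reference and leaving out WT replicate 3 or Jab1 mutant replicate 1, 3 or 4 (edgeR adjusted p up to 0.152). Between double mutants and WT, where 1 member was called, upper-quartile scaling gave 2, DESeq2 6, limma-voom 0, the 10 CPM filter 3, all 12 samples in one fit 4, and leaving out 1 replicate 0 to 4, with 4 without double mutant replicate 1 and 0 without any of the other 7. Relative to P2ry12 and Tmem119, where 0 were called, P2ry12 alone, the homeostatic markers and the 10 CPM filter each gave 1, the pan-macrophage markers 4 (also 4 without double mutant replicate 3), and leaving out 1 replicate 0 to 1 (1 without double mutant replicate 1 or 3). In the remaining comparison, double mutants with Jab1 mutants, 0 were called in each fit. Over all genes, 919 were higher and 435 lower between Jab1 mutants and WT, against 1687 and 1002 with DESeq2, 581 and 322 with no filter, and 420 and 240 with the replicate block. Double mutants gave 31 higher and 3 lower than WT, against 663 and 199 with DESeq2 and 7 and 0 without double mutant replicate 3, where 0 in place of 2 genes of the pathway lists were called. The list calls and the pan-macrophage reference without that replicate were added after seeing the data. The causes were not tested.

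For same-numbered samples of different genotypes, the correlation of deviations was -0.19 to 0.083. Samples with different numbers were not compared in this way, so these values do not settle whether the numbers pair the samples. With the replicate as a block, 7 members were called between Jab1 mutants and WT, 8 relative to P2ry12 and Tmem119, and 0 between double mutants and WT. In this fit only samples whose number occurs in both groups inform the difference. These are replicates 1 and 3 for Jab1 mutants with WT, and 1, 3 and 5 for double mutants with WT. For double mutants with Jab1 mutants they are replicates 1, 2 and 3. The block therefore does not check the results over all samples. The block turned the log2 difference of Axl to -0.23 between Jab1 mutants and WT. In double mutants against Jab1 mutants it turned Trem2 to -1.81, Cst7 to -0.30, Lpl to -0.69, Clec7a to -0.18 (relative, -0.047) and Gpnmb to 0.68.

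The other changes of sign were also in log2 differences that passed no test. With no filter, Axl read -0.069 between Jab1 mutants and WT and Gpnmb 0.017 between double mutants and Jab1 mutants. limma-voom gave -1.63 for Trem2, -2.64 for Cst7, -0.72 for Lpl, -0.43 for Spp1 and 0.034 for Gpnmb in the latter comparison, and P2ry12 alone gave -0.34 for Tyrobp and -0.14 for Clec7a. With the pan-macrophage reference and without double mutant replicate 3, Spp1 read 0.11 there. Relative to Tmem119 alone, Gpnmb read 0.10 between double mutants and WT. With 1 replicate left out, Axl ranged from -0.15 to 0.63 between Jab1 mutants and WT. In double mutants against WT, Apoe ranged from -0.040 to 0.59, Axl from -0.16 to 0.98, and relative Gpnmb from -1.18 to 0.62. Between double mutants and Jab1 mutants, the ranges were -2.06 to 0.60 for Trem2, -0.65 to 1.51 for Tyrobp, -0.70 to 0.86 for Cst7, -1.26 to 1.21 for Lpl, -0.21 to 0.66 for Axl, -0.20 to 1.89 for Clec7a, -0.78 to 1.02 for Spp1 and -0.34 to 0.76 for Gpnmb, and relative to P2ry12 and Tmem119 -0.16 to 0.50 for Tyrobp, -0.84 to 0.21 for Spp1 and -0.39 to 1.24 for Gpnmb.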
